A study of Mus musculus with 4 samples.

Results

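The genes of DNA replication origins and forks were taken as 47 named genes. They were found on the arrays by matching each probe's accession to a gene symbol, and the brightest probe of a gene stood for it. All 47 were found among 19748 gene symbols, and all 47 were well above background on all 4 arrays, so no member was lost to the filter on dim probes. By role they were split into 23 genes of origin licensing and firing, 20 genes of the polymerases and the fork, and 4 genes of nucleotide supply. The samples were 4 cultures of female mouse embryonic stem cells (ESCs), all parthenogenetic, which means derived from an unfertilised egg and carrying a maternal genome alone. The haploid group held lines 1 and 2 of parthenogenetic haploid ESCs, and the diploid group held lines 1 and 2 of parthenogenetic diploid ESCs, with 1 array for each line. The labels name no strain, passage, feeder layer or sorting step, and do not say whether haploid line 1 and diploid line 1 have a common origin. Haploid ESCs tend to become diploid in culture, and the title of the series places its interest in the G2/M step and in keeping such cells haploid.

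Replication starts at origins that are licensed in G1. The origin recognition complex (ORC) binds the origin, CDC6 and CDT1 join it, and together they load the ring-shaped helicase made of MCM2 to MCM7. Geminin blocks CDT1 after S phase has begun, so that an origin is licensed once in a cycle. In S phase the kinase CDC7 with its activator DBF4 fires the licensed origin, and CDC45 and the GINS complex join the MCM ring to make the active helicase. Behind it, primase and polymerase alpha lay down primers, the RFC complex loads the PCNA clamp, polymerases delta and epsilon copy the strands, and FEN1 and ligase I join the Okazaki fragments. Mouse ESCs spend a large part of their cycle in S phase, and these genes are abundantly transcribed in them.

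Each array gave a signal per probe, which was set on a log2 scale relative to that array's 75th percentile, so that 0 stands for the brightness of the 75th percentile. This scale gives a share of the RNA on an array, not RNA per cell, and in bulk cultures fewer cells in S phase and less RNA per cell cannot be told apart. The 75th percentile lay at 526 to 907 intensity units, and 53.6% to 65.0% of probes were well above background. All 10 markers of ESCs looked up were well above background on all 4 arrays. In log2 of haploid over diploid 6 of them lay above 0 and 4 below, from -0.51 ± 0.19 (Tdgf1) to 0.35 ± 0.21 (Dppa5a). Of 10 feeder fibroblast markers 8 passed the filter (Pdgfra and Pdgfrb did not). Their summed linear signal was 11.3 and 8.61 times the 75th percentile in haploid cells and 7.10 and 5.41 times in diploid cells. In their difference 4 of the 8 lay above 0, namely Thy1, Col1a1, Postn and Col1a2 (1.11 ± 0.31, 0.99 ± 0.31, 0.61 ± 0.26 and 0.58 ± 0.27). The 4 below were Col3a1, Dcn, Lum and Twist1 (-0.39 ± 0.32, -0.38 ± 0.19, -0.29 ± 0.31 and -0.23 ± 0.18), and the median was 0.17. For trophectoderm 5 of 8 markers passed (Cdx2, Elf5 and Hand1 did not) and summed to 17.9 and 14.6 in haploid and 13.0 and 13.5 in diploid cells. Of these 5, Krt18, Krt8 and Gata3 lay above 0 (1.23 ± 0.17, 1.15 ± 0.23 and 1.02 ± 0.19) and Eomes and Tfap2c below (-0.43 ± 0.17 and -0.14 ± 0.22), with a median of 1.02 in log2 of haploid over diploid. For primitive endoderm 2 of 6 passed, Gata4 and Gata6, both below 0 (-0.77 ± 0.28 and -0.96 ± 0.43), with summed signals of 0.046 and 0.091 in haploid and 0.0996 and 0.14 in diploid cells. Neither gene was well above background on all 4 arrays. Since the filter admits a gene through 1 group alone, the side of 0 of such dim genes carries little weight. No marker passed the test at an adjusted p under 0.05. The part of other cell types in the differences below was not tested.

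No replication gene passed the test between haploid and diploid cells. At an adjusted p under 0.05 in limma's moderated test, 0 of 47 members were called, beside 0.111% of the 17963 features compared. Dbf4 and Orc1 had an unadjusted p under 0.05, both lower in haploid cells, or 2 of 47 beside 11.7% of all features (4.92% with the same direction). Differences, given throughout as haploid minus diploid on the log2 scale with the standard error (SE) of the fit and 2 arrays per group, ran from -0.50 for Orc1 to 0.40 for Rfc4, with a median of 0.038 beside 0.024 over all features. Of the 47 members, 27 lay above 0 (57.4%, beside 53.2% of all features) and 20 below, and 29 were within 1 SE of 0. The intervals of the main fit bound these differences for its scaling and filter only. In that fit the 95% interval of every member lay inside a 2-fold difference in either direction, and that of 24 members lay inside a 1.5-fold difference. Other processing gave other widths. The SE of Orc1, 0.19 in the main fit, was 0.18 with quantile normalization. It was 0.24 with no filter on dim probes and 0.50 with normexp background correction on all spots. Haploid and diploid values did not overlap for 23 members, 11 higher and 12 lower in haploid cells, which is 48.9% of members beside 47.0% of all features. By direction these were 23.4% and 25.5% of members, beside 26.0% and 20.9% of all features. As 2 arrays against 2 give no exact permutation p below 0.333, a lack of overlap carries little weight for a single gene.

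**Figure D1:**
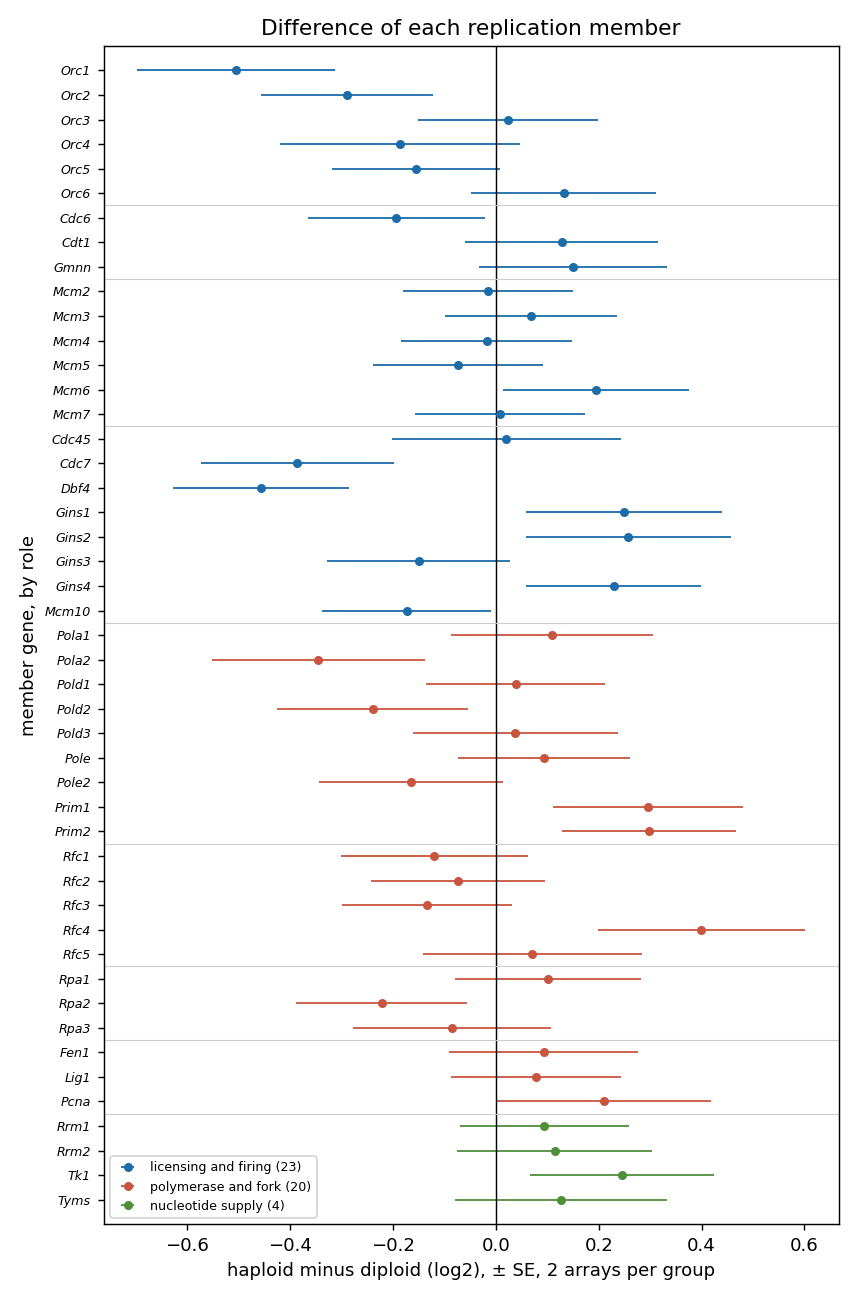
Difference between haploid and diploid cells (log2, haploid minus diploid) for each of the 47 members, ordered by role and coloured by class; points are the difference of the means of 2 arrays per group and bars are ± 1 SE of the fit. Most bars cross 0, with Orc1, Dbf4 and Cdc7 at the low end and Rfc4, Prim1 and Prim2 at the high end.

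Among the 6 ORC subunits, 4 lay below 0 (all 6 under quantile normalization), with a median of -0.17. Orc1, the subunit whose amount changes with the cell cycle, had log2 signals of 0.39 and 0.70 on the haploid arrays and 0.96 and 1.13 on the diploid arrays. Both diploid values were above both haploid values, and haploid line 1 was the lowest. The difference was -0.50 ± 0.19 (adjusted p = 0.394), and -0.66 to -0.35 with 1 array left out. Orc2, a core subunit, read 0.063 and -0.064 in haploid and 0.28 and 0.30 in diploid cells. Its groups did not overlap either and its replicates lay close together, with a difference of -0.29 ± 0.17 (adjusted p = 0.53). Orc5 was the third subunit without overlap, at -0.16 ± 0.16. For Orc4 the groups overlapped, at -2.02 and -1.62 in haploid and -1.85 and -1.42 in diploid cells, and its difference was -0.19 ± 0.23. A second, dimmer Orc4 probe read -0.63 without overlap. Orc6, the least tightly bound subunit, read 4.84 and 4.98 in haploid and 4.89 and 4.66 in diploid cells, with diploid line 2 the lowest. It and Orc3 lay at 0.13 ± 0.18 and 0.024 ± 0.18, within 1 SE of 0. A second Orc3 probe was well above background on only 2 arrays and was not used.

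The loading factors lay on both sides of 0. Cdc6, the ATPase that joins ORC at the origin, had values of 0.92 and 1.11 on the haploid arrays and 1.24 and 1.18 on the diploid arrays, without overlap, and differed by -0.19 ± 0.17 (adjusted p = 0.668). Its other probe, which was dimmer, read 0.15 and so pointed the other way. Cdt1, which brings the MCM ring, read 5.86 and 6.07 in haploid and 5.96 and 5.72 in diploid cells. Gmnn, which encodes geminin, the inhibitor of CDT1, read 2.67 and 2.88 in haploid and 2.73 and 2.53 in diploid cells. In both genes haploid line 2 was the highest array and diploid line 2 the lowest, while the first line of each group lay between them. They differed by 0.13 ± 0.19 and 0.15 ± 0.18 (adjusted p = 0.801 and 0.76).

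The genes of the MCM helicase differed little between haploid and diploid cells. The 6 subunit genes lay between -0.074 and 0.19, 5 of them within 1 SE of 0, with a median of -0.0036. All 6 lay below 0 under quantile normalization, from -0.22 for Mcm5 to -0.039 for Mcm6. Mcm2 read 3.85 and 3.87 in haploid and 3.83 and 3.92 in diploid cells, and Mcm7 read 5.82 and 5.83 in haploid and 5.84 and 5.78 in diploid cells. The 4 arrays lay within 0.088 of each other for Mcm2 and within 0.062 for Mcm7. Their differences were -0.015 ± 0.17 and 0.0082 ± 0.16 (adjusted p = 0.976 and 0.988), with 95% intervals of -0.42 to 0.39 and -0.39 to 0.41. Mcm4 and Mcm3 differed by -0.018 ± 0.17 and 0.068 ± 0.17. Mcm5 read 5.06 and 5.003 in haploid and 5.07 and 5.14 in diploid cells, so its groups did not overlap, at a difference of only -0.074 ± 0.17. Mcm6 read 7.07 and 7.20 in haploid and 7.06 and 6.82 in diploid cells. Diploid line 2 stood below the other 3 arrays there, and the difference was 0.19 ± 0.18 (adjusted p = 0.684). Over the 6 genes the 95% intervals reached from -0.47 to 0.63, or from 1.39-fold lower to 1.55-fold higher in haploid cells.

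Genes of origin firing also lay on both sides of 0. Both genes of the CDC7 kinase lay at the low end of the set. Dbf4, the regulatory subunit that activates the kinase, read 0.95 and 0.83 on the haploid arrays and 1.29 and 1.40 on the diploid arrays. The haploid values were the lower ones by more than the gap between replicates of either group, and the difference was -0.46 ± 0.17 (adjusted p = 0.385), or -0.52 to -0.40 with 1 array left out. Cdc7, the kinase itself, read -3.55 and -3.37 in haploid and -3.20 and -2.94 in diploid cells. Its probe was dim, its groups did not overlap, and it differed by -0.39 ± 0.19 (adjusted p = 0.484). Its second probe, well above background on 3 arrays, read -0.63, also without overlap.

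The genes of the GINS complex, the partner of MCM and CDC45, lay mostly on the other side. Gins1 read 3.57 and 3.79 in haploid and 3.56 and 3.30 in diploid cells, Gins2 read 2.06 and 2.47 in haploid and 2.02 and 1.99 in diploid cells, and Gins4 read 2.68 and 2.69 in haploid and 2.54 and 2.37 in diploid cells. In these 3 genes the haploid values lay above the diploid values, although for Gins1 haploid line 1 exceeded diploid line 1 by only 0.0067. They differed by 0.25 ± 0.19, 0.26 ± 0.20 and 0.23 ± 0.17 (adjusted p from 0.611 to 0.622). For Gins2, haploid line 2 was the high array, and without it the difference was 0.055. Gins3 lay below 0, at -0.15 ± 0.18, with overlapping groups. Mcm10, a scaffold that joins the helicase to primase and polymerase alpha, read 4.30 and 4.31 in haploid and 4.46 and 4.49 in diploid cells. Its replicates were nearly equal and its groups did not overlap, with a difference of -0.17 ± 0.16 (adjusted p = 0.689). Cdc45, the third part of the active helicase, read -0.70 and -0.22 in haploid and -0.59 and -0.37 in diploid cells. The second line of each group was higher than the first by more than the groups differed, at 0.021 ± 0.22.

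**Figure D2:**
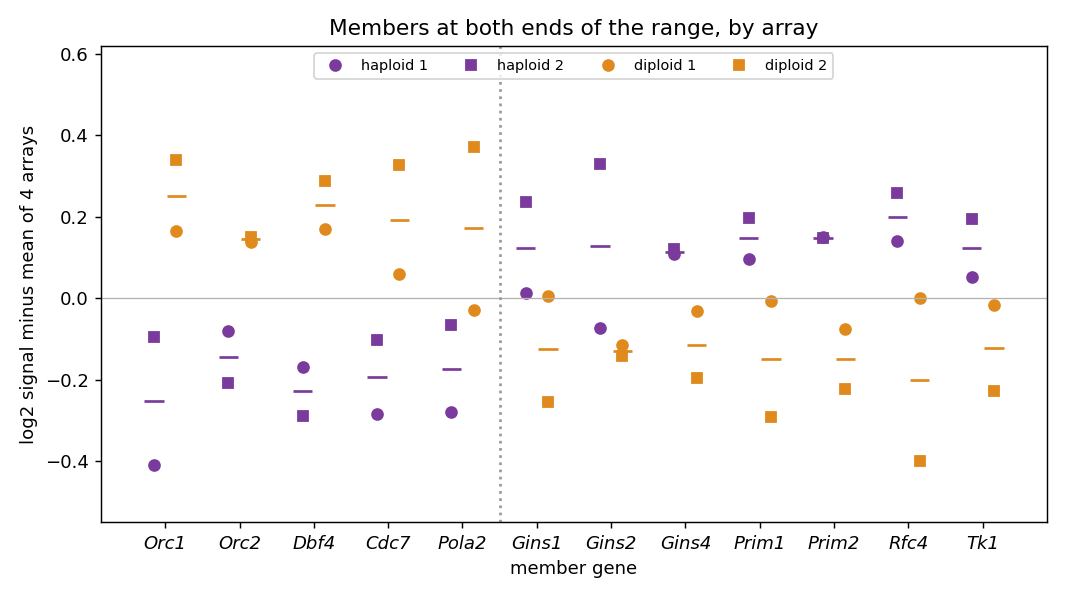
Log2 signal of 12 members on each array, minus the member's mean over the 4 arrays; circles are line 1 and squares line 2 of haploid (purple) and diploid (orange) cells, and bars are group means. The 5 members left of the dotted line lie lower in haploid cells and the 7 to its right higher, and for none of the 12 do the groups overlap, while replicates of 1 group differ by up to 0.40. The 12 were picked from both ends of the range after their values were seen, so the lack of overlap largely follows from the choice. Of all features, 47.0% do not overlap.

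In the complex of polymerase alpha and primase, which starts every new strand, the primase and Pola2 genes lay on opposite sides of 0. Prim1, the catalytic primase subunit, read 4.51 and 4.61 on the haploid arrays and 4.40 and 4.12 on the diploid arrays. Prim2, its partner, read 2.40 and 2.39 in haploid and 2.17 and 2.02 in diploid cells, with nearly equal haploid replicates. Both were higher in haploid cells without overlap, by 0.30 ± 0.18 and 0.30 ± 0.17 (adjusted p = 0.558 and 0.526). Pola2, the second subunit of polymerase alpha, read -1.95 and -1.74 in haploid and -1.70 and -1.30 in diploid cells. Diploid line 2 was the highest array there and the groups did not overlap, at -0.35 ± 0.21 (adjusted p = 0.543). Without diploid line 2 the difference of Pola2 was -0.14. Pola1, the catalytic subunit, read 3.03 and 2.95 in haploid and 3.07 and 2.69 in diploid cells, with overlapping groups and a difference of 0.11 ± 0.20.

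Polymerase delta, which copies the lagging strand, and polymerase epsilon, which copies the leading strand, showed no common direction. The catalytic genes Pold1 and Pole differed by 0.038 ± 0.17 and 0.094 ± 0.17, each within 1 SE of 0. Pold1 read 4.72 and 4.93 in haploid and 4.76 and 4.81 in diploid cells, and Pole read 3.64 and 3.77 in haploid and 3.63 and 3.59 in diploid cells. The accessory genes Pold2 and Pole2 lay lower than their catalytic partners, at -0.24 ± 0.19 and -0.16 ± 0.18. Pold2 read 1.34 and 1.64 in haploid and 1.75 and 1.70 in diploid cells. Haploid line 1 was the low array, and without it the difference was -0.087. The third delta subunit gene, Pold3, was at 0.038 ± 0.20.

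Of the 5 genes of the RFC clamp loader, Rfc4 stood apart from the others. Rfc4 read 4.33 and 4.45 on the haploid arrays and 4.19 and 3.79 on the diploid arrays. Both haploid values were higher, diploid line 2 was the lowest by 0.40, and the difference was 0.40 ± 0.20 (adjusted p = 0.498), the highest of the members. Its second probe read 0.25, and with 1 array left out Rfc4 ran from 0.20 to 0.60. Rfc1, the large subunit, read 3.49 and 3.28 in haploid and 3.59 and 3.41 in diploid cells, with overlapping groups, and differed by -0.12 ± 0.18. Rfc2, Rfc3 and Rfc5 lay at -0.073, -0.13 and 0.070, each within 1 SE of 0.

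Replication protein A (RPA) covers single-stranded DNA at the fork. Its middle subunit gene Rpa2 read 1.93 and 1.97 in haploid and 2.22 and 2.12 in diploid cells, lower in haploid cells without overlap, with a difference of -0.22 ± 0.17 (adjusted p = 0.613). Rpa1, the large subunit, and Rpa3, the small one, overlapped at 0.10 ± 0.18 and -0.085 ± 0.19. Pcna, the sliding clamp, read 5.75 and 5.80 in haploid and 5.79 and 5.34 in diploid cells. Only diploid line 2 stood below the rest, and Pcna differed by 0.21 ± 0.21, or by -0.016 without that array. Fen1, the flap nuclease, and Lig1, the ligase of Okazaki fragments, differed by 0.093 ± 0.18 and 0.078 ± 0.17. Fen1 read 4.72 and 4.57 in haploid and 4.68 and 4.43 in diploid cells, and Lig1 read 5.27 and 5.29 in haploid and 5.24 and 5.16 in diploid cells. Lig1 values did not overlap, but all 4 lay within 0.127 of each other.

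All 4 genes of nucleotide supply lay slightly above 0, with a median of 0.12, although Rrm1 and Rrm2 lay below it under quantile normalization (-0.021 and -0.079), and none passed the test. Rrm1 and Rrm2 encode the ribonucleotide reductase subunits that make deoxynucleotides. Rrm1 read 3.78 and 3.74 in haploid and 3.67 and 3.65 in diploid cells, and Rrm2 read 6.34 and 6.34 in haploid and 6.39 and 6.06 in diploid cells. Rrm1 did not overlap, at 0.094 ± 0.16, and Rrm2 did, at 0.11 ± 0.19. Tk1, the thymidine kinase of the salvage route, read 4.02 and 4.16 in haploid and 3.95 and 3.74 in diploid cells, higher in haploid cells without overlap, by 0.24 ± 0.18 (adjusted p = 0.606). Tyms, the thymidylate synthase, was measured by a dim probe that read -2.44 and -2.20 in haploid and -2.63 and -2.26 in diploid cells. The second line was the brighter one in each group, and Tyms differed by 0.13 ± 0.21.

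The spread between replicate lines was often as large as the difference between the groups. From haploid line 1 to line 2, 33 members were higher and 14 lower, with a median gap of 0.089. From diploid line 1 to line 2, 15 were higher and 32 lower, with a median gap of -0.10. Over all features the median gaps were 0.034 and -0.026. In size both gaps of the members exceed their median difference between the groups, 0.038, which is a median over members on both sides of 0. For 16 of the 47 members the difference between groups was larger than the gap between lines in both groups. The same share was not counted over all features, so that count cannot be read as a trait of these genes. In the map of array values diploid line 2 is the low array for Pcna, Rfc4, Prim1, Rrm2 and Mcm6 and the high array for Pola2, Cdc7, Orc1 and Dbf4.

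**Figure D3:**
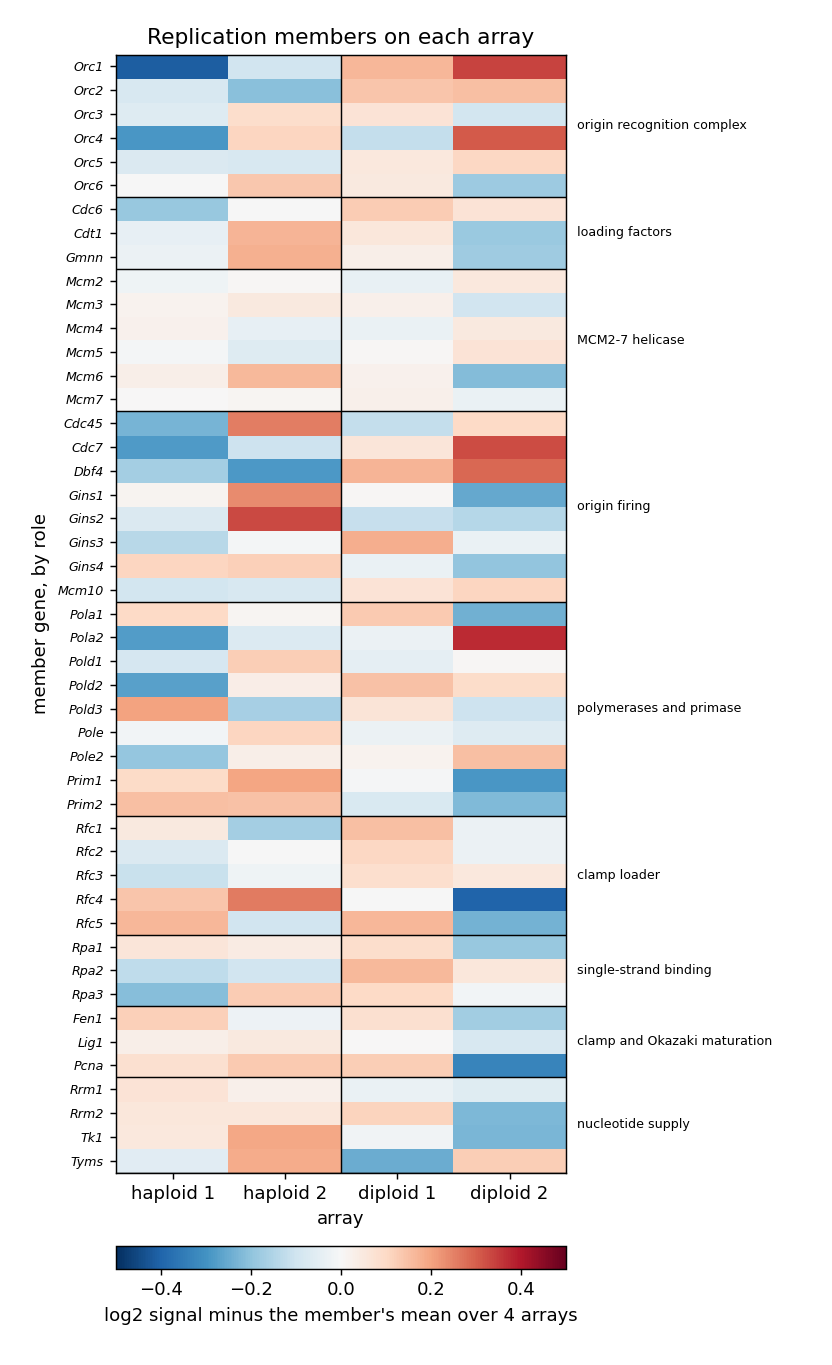
Log2 signal of each member on each array minus its mean over the 4 arrays (red above, blue below; colour scale in log2 units), with members in rows by role and arrays in columns. Rows of Mcm2, Mcm4, Mcm5 and Mcm7 are nearly white. Strong colours lie in Orc1, Cdc7, Dbf4, Pola2, Gins2 and Rfc4, and also in Pcna and Orc4, whose groups overlap. Diploid line 2 differs from diploid line 1 in many rows.

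Differences followed the brightness of the probe, among members as among all features. Features were put into 10 equal bins by brightness, a property of probe and transcript together that gives no order of levels between genes. On the 75th percentile scale the median difference of all features went from -0.17 in the dimmest bin to 0.22 in the brightest. In bins 9 and 10 lay 29 members, with a median of 0.078 beside 0.15 for all features there. The other 18 members had a median of -0.18 beside -0.028 for all features of bins 1 to 8. Within their own bin, 33 of 47 members lay below the median of all features. Across the 47 members, brightness and difference had a Spearman correlation of 0.47 and a Pearson correlation of 0.53, given as a description over genes that share the same 4 arrays. Quantile normalization, which gives the 4 arrays the same distribution, levelled the features (-0.072 in the dimmest bin and -0.0081 in the brightest). Under it the members of bins 9 and 10 had a median of -0.067 and the others one of -0.19, and the Spearman correlation was 0.22.

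**Figure D4:**
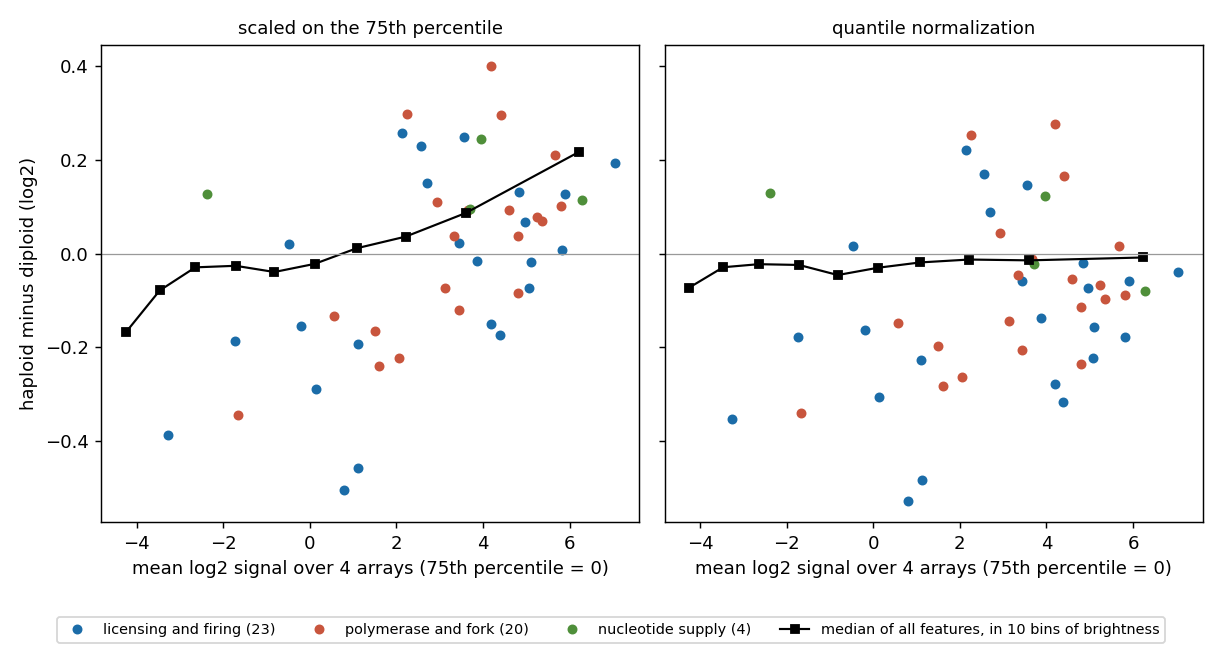
Difference of each member (log2, haploid minus diploid) against its mean log2 signal over 4 arrays, with the 75th percentile at 0, under the main scaling (left) and quantile normalization (right). Coloured points are the 47 members by class and black squares the median of all features in each of 10 bins of brightness; the black squares climb from -0.17 to 0.22 on the left and lie between -0.072 and -0.0081 on the right.

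The side of 0 on which most members fell changed with the scaling. Under quantile normalization 12 members lay above 0 (25.5%, beside 46.3% of all features) and 35 below, with a median of -0.089, and the members without overlap were 6 higher and 19 lower (12.8% and 40.4% of members, beside 21.9% and 25.4% of all features). With the 75th percentile that split was 11 and 12. The 15 members that changed sign had lain between 0.0082 and 0.19, with Mcm3, Fen1, Lig1, Rrm1 and Rrm2 among them. Of the members, 14 kept their sign throughout. Dbf4, Orc1, Cdc7, Orc2, Pola2 and Orc5 lay below 0, and Gmnn, Gins1, Gins2, Gins4, Tk1, Prim1, Prim2 and Rfc4 above 0, under all 17 alternatives run, which include each array left out. Not all of these could turn a sign. The common floor, the other filters, the variance model and the replicate block leave a member's difference as it is. The mean over probes alters only the 4 members with a second probe past the filter.

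**Figure D5:**
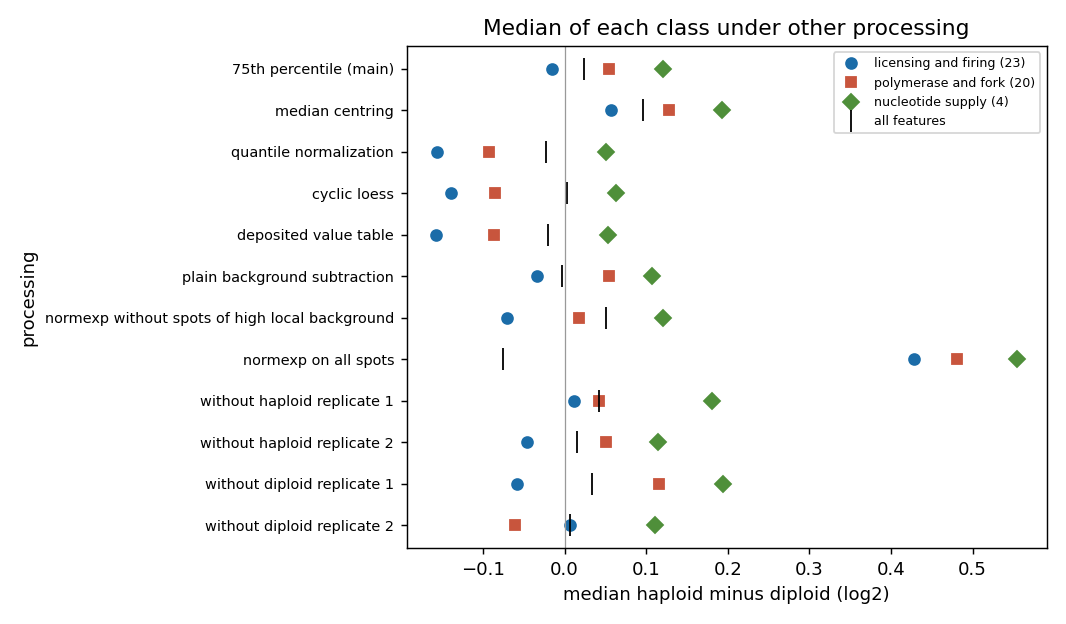
Median difference (log2, haploid minus diploid) of the 3 classes of members, and of all features (black ticks), under the main processing and 11 alternatives. The licensing median runs from -0.16 to 0.057 and the nucleotide supply median from 0.050 to 0.19, apart from normexp on all spots, where all 3 classes lie above 0.4.

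Some members, but fewer than those without it, hold the letters of a promoter motif of the E2F family, the transcription factors that switch on S phase genes. RefSeq promoter windows (GRCm38.p6, 250 bases before to 50 after a gene's start) were at hand for 39 of the 47 members. The letters TTTCCCGC, TTTGGCGC, TTTCGCGC or TTTGCCGC were searched on both strands. They stood in the windows of 15 of 39 members (38.5%), beside 4.62% of 10444 compared genes with a window and 2.61% of all 27025 genes with one. By class they stood in 9 of 18 licensing, 6 of 17 polymerase and 0 of 4 nucleotide supply genes. The CCAAT box stood in 23 of 39 members (59.0%, beside 43.1% of compared genes), and the letters TTTGAA, a cell cycle element found in genes of G2 and mitosis, in 7 of 39 (17.9%, beside 14.7%). A match of letters is a description and no measure of binding, and a lack of one says only that these letters are not in the window. Members with an E2F match had a median difference of 0.024 and those without it one of 0.0025, and the former ranged from -0.50 (Orc1) to 0.19 (Mcm6). Stretches before the start of 5 of these genes are shown because they cover the lowest member, the loading factor CDC6 and the MCM helicase. They are written in the direction of the gene, with the matched bases in capitals and overlapping matches joined. Those of Orc1, Cdc6 and Mcm7 lie inside the annotated span of the gene itself, and that of Mcm7 also in the span of Ap4m1.
Orc1 (chr4:108579419-108579442, plus strand): ggttagtgGCGCGAAAagttttct
Cdc6 (chr11:98908005-98908028, plus strand): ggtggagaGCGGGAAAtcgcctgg
Mcm5 (chr8:75109340-75109383, plus strand): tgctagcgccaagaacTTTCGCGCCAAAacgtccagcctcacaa
Mcm6 (chr1:128359729-128359768, minus strand): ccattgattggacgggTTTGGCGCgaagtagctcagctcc
Mcm6 (chr1:128359788-128359831, minus strand): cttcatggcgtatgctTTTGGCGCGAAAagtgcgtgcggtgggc
Mcm7 (chr5:138172033-138172056, minus strand): ttcgaaccGCGGGAAAcagggtgt

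In the Mcm5 stretch and the second Mcm6 stretch, matches on opposite strands overlap. Orc1 and Mcm6 were the lowest and the highest of the members with E2F-type letters, at -0.50 and 0.19 in the main fit. Under quantile normalization both lay below 0, at -0.53 and -0.039, so the side of 0 of Mcm6 depended on the scaling. Whether E2F has a part in these differences was not tested.

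A wider list of 94 replication genes outside the set was looked up as well, of which 89 passed the filter and none the test. It holds fork protection, repair synthesis, chromatin assembly, nucleotide metabolism and E2F control. Of the 89, 38 lay above 0 and 51 below, beside 53.2% of all features above 0. Their median was -0.028, beside 0.024 over all features. Under quantile normalization it was -0.092, beside -0.023 over all features. At an unadjusted p under 0.05 in limma's test were 1 higher and 4 lower (beside 6.79% and 4.92% of all features). Without overlap were 19 higher and 25 lower (21.3% and 28.1%, beside 26.0% and 20.9% of all features). The 4 with the lowest moderated t (difference over its error) were Asf1a, a histone chaperone, at -0.997 ± 0.24 (adjusted p = 0.202), Dna2, a nuclease of Okazaki fragments, at -0.70 ± 0.21, the mitochondrial thymidine kinase Tk2 at -0.55 ± 0.17 and the nucleoside transporter Slc29a1 at -0.50 ± 0.20. Asf1a lay in the dimmest bin, at -4.99 and -4.94 in haploid and -4.27 and -3.67 in diploid cells. Its haploid values were below -4.60, the highest of the 4 arrays' lowest signals well above background. Its difference is thus one near the floor and carries little weight. Dna2 read -0.59 and -0.59 in haploid and -0.13 and 0.34 in diploid cells, with nearly equal haploid replicates, and its difference was -0.46 without diploid line 2. The 4 with the highest moderated t were Chtf18, part of a second clamp loader, at 0.51 ± 0.20 (adjusted p = 0.418), the ubiquitin ligase scaffold Cul4b at 0.41 ± 0.18, the deoxynucleotide hydrolase Samhd1 at 0.45 ± 0.21 and Dscc1, a partner of CHTF18, at 0.27 ± 0.16. Second probes of Cul4b and Samhd1 read -0.090 and -0.18. Chtf18 read 3.96 and 4.06 in haploid and 3.71 and 3.29 in diploid cells, and Dscc1 read 1.45 and 1.40 in haploid and 1.16 and 1.15 in diploid cells. Both were higher in haploid cells without overlap, as was Rfc4, which encodes a small subunit that the RFC and CHTF18 loaders share. The genes of the other small RFC subunits did not go with them. Rfc2, Rfc3 and Rfc5 lay at -0.073, -0.13 and 0.070, and Rfc3 was lower in haploid cells without overlap.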

How the data were processed

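Total RNA (0.2 ug per sample) was labelled with Cy3 and hybridised to 1-colour Agilent arrays, per the labels' protocols. Per the file headers, Agilent Feature Extraction (version 11.0.1.1) wrote the deposited scanner output, which gives linear intensity. The authors' deposited value table also holds intensity, on a linear scale, with column medians of 28.4, 28.3, 28.4 and 28.3. Its normalization was not given in the sources used here.

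Control spots and outlier spots (121 to 168 of 43020 per array) were left out, repeated spots averaged, and log2 of the processed signal set relative to each array's 75th percentile. Of 39409 probes, 66.1% were named through RefSeq accessions (GRCm38.p6). Probes were kept if either group had both of its arrays well above background, and each gene was represented by its brightest probe. limma 3.58.1 under R 4.3.3 (lmFit and eBayes, two-sided) was run on all 17963 features, p-values were adjusted over all of them by Benjamini-Hochberg, and the threshold was 0.05, and the script was tested on simulated data. Precision is limited by the 2 arrays per group. The design text calls these independent experiments. The moderated SE and p-values rest in part on the spread between them. The other part is a spread pooled over all features, with 4.255 prior degrees of freedom. For members with nearly equal arrays the pooled part largely sets the SE. An example is Mcm7, whose 4 arrays lay within 0.062 of each other at an SE of 0.16. Python 3.11.15, pandas 2.3.3 and numpy 2.4.6 were used.

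Members, classes and lists were chosen with earlier results of these data known. Named in full were preset members and the 6 with the highest and 6 with the lowest moderated t. Of the wider list, the 4 at each end were named. Gins2, Mcm6, Orc4, Pold2 and the 12 plotted members were singled out after their values were seen. The alternatives were other scalings (quantile, cyclic loess, median), background corrections, the value table, filters, probe choice, variance model, replicate block and arrays left out. Background alternatives used the median spot signal, since the scanner files given here hold no mean signal.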

Additional observations from a re-analysis of the deposited data

How the results depend on the processing

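No member was called under any of the 17 alternatives, where the smallest adjusted p among members ran from 0.144 to 0.906, and no gene of the wider list was called either. The number of features called in all, 20, moved to 7 with quantile normalization, 4 with the deposited value table, 2 with the replicate block, 18 with the mean over probes of a gene, 82 with probes well above background on all 4 arrays, 89 with median centring, 117 with plain background subtraction, 119 with normexp once spots of high local background were dropped (chosen after seeing the data) and 425 with trend and robust variance. It was 0 in limma with cyclic loess, normexp on all spots, a common floor or no filter (2286, 127, 2067 and 1660 features at an unadjusted p under 0.05), and ran from 0 to 294 with 1 array left out (226 without haploid line 1, 294 without haploid line 2, 0 without diploid line 1 or line 2, with 2344 and 1201 at an unadjusted p under 0.05). The replicate numbers were not taken to pair the lines, since the deviations of same-numbered arrays from their group means had a correlation of 0.048, and the replicate block left 0 members called (2 at an unadjusted p under 0.05). Members without overlap were 6 higher and 19 lower with quantile normalization and with cyclic loess, 6 and 20 with the value table, 7 lower with median centring, and 10 in all with 2 lower with normexp on all spots. Leaving out an array makes 1 value against 2 and gives no such count. Over all features the shares higher and lower without overlap were 26.0% and 20.9% in the main fit. With quantile normalization they were 21.9% and 25.4%. For the other settings no such shares were counted, so their counts of members cannot be read as a trait of these genes.

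Medians of all members, licensing, polymerase and nucleotide supply genes were -0.089, -0.16, -0.092 and 0.050 with quantile normalization. The value table gave licensing, polymerase and nucleotide supply medians of -0.16, -0.086 and 0.054, cyclic loess a polymerase median of -0.085, and median centring polymerase and nucleotide supply medians of 0.13 and 0.19. With normexp on all spots the 4 medians were 0.45, 0.43, 0.48 and 0.55, while that of all features was -0.075. That alternative includes spots of diploid line 2 with local background up to 30899 units, and without spots over 200 units the median of all members was 0.00091. With 1 array left out the polymerase median ran from -0.061 (without diploid line 2) to 0.12 and the nucleotide supply median from 0.11 to 0.19. Of single members, counting a change of sign only where a value exceeded its SE, Mcm6 and Mcm7 turned to -0.039 and -0.18 with quantile normalization, -0.031 and -0.17 with cyclic loess and -0.049 and -0.17 with the value table. With normexp on all spots Cdc6, Mcm10, Pold2 and Rpa2 turned to 0.014, 0.24, 0.048 and 0.12. Pcna ran from -0.016 (without diploid line 2) to 0.44 with 1 array left out. Median centring put the median of all features at 0.097, against 0.024 with the 75th percentile. Beyond the settings named here the cause of these changes was not tested.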
